A study of Mus musculus with 12 samples.

Results

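The Kruppel-like factors (KLFs) described here are 10 genes, Klf2, Klf3, Klf4, Klf5, Klf6, Klf7, Klf9, Klf10, Klf13 and Klf15, taken by symbol from the 55491 genes of the deposited tables. They were selected on measured values of these libraries, so their levels and fold changes are a description and carry no p-value. The libraries came from PT-22, a mouse proximal tubule epithelial line that is Pax2-/-, carries floxed alleles of Pax8 (Pax8fl/fl) and holds Rosa-CreERT2, a Cre recombinase at the Rosa locus that 4-hydroxytamoxifen activates. Control cells carry the same alleles and received no treatment, and the treated cells received 1 µM 4-hydroxytamoxifen for 2 days at confluence and were collected at day 2, day 6 or day 12. Each group held 3 libraries of polyA RNA, lettered A, B and C, which makes 12 in all. The labels do not say whether these were separate cultures, so p-values measure only the spread between libraries, which may be technical. No library was vehicle-treated or left untreated until a later day, so loss of PAX8, the drug, Cre activity and time in culture cannot be told apart.

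KLFs are transcription factors that bind GC-rich and CACCC elements of promoters through zinc fingers at the C terminus and differ in the N-terminal parts that recruit partners. KLF3, with KLF8 and KLF12, recruits the CtBP corepressors. KLF2, KLF4, KLF5, KLF6 and KLF7 act largely as activators, and KLF9, KLF10, KLF11, KLF13 and KLF16 bind the Sin3A corepressor. In the kidney, KLF2 is known from glomerular endothelium, KLF4 and KLF15 from podocytes, KLF5 from collecting duct, and KLF6 from injured proximal tubule, and several KLF genes are themselves immediate early genes that respond to serum, growth factors or hormones.

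Promoter windows from RefSeq (build GRCm38.p6) matched 8 of the 10 genes, all but Klf5 and Klf10, and each holds 300 bases, 250 before and 50 after the annotated start. The windows of Klf6, Klf7 and Klf13 are shown because these genes were higher at each treated day, and that of Klf4 because it had another time course. Capitals mark CACCC, the core of the KLF-recognised box, on either strand (GGGTG where it lies on the other strand). The Klf6 window lies at chr13:5861239-5861538 (+), the Klf7 window at chr1:64121340-64121639 (-), the Klf13 window at chr7:63938866-63939165 (-) and the Klf4 window at chr4:55532426-55532725 (-). The RefSeq start of Klf7 lies inside the GENCODE span of the gene given below.
Klf6: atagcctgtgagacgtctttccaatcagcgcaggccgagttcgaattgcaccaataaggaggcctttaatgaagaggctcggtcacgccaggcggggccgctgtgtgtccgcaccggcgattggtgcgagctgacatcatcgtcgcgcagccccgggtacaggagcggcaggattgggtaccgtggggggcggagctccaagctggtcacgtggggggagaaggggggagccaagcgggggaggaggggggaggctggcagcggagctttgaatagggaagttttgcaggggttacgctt
Klf7: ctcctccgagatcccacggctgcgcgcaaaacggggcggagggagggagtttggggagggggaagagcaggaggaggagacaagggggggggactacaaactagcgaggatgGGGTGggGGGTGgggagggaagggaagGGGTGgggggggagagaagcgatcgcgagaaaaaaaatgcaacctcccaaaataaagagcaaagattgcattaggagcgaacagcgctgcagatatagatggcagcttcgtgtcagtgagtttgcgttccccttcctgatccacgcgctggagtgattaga
Klf13: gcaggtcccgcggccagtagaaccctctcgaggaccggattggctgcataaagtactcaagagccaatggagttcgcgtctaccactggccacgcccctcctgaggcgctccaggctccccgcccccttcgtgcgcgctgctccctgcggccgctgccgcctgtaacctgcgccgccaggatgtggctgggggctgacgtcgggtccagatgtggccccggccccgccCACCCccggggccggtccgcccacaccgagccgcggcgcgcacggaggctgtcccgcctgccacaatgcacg
Klf4: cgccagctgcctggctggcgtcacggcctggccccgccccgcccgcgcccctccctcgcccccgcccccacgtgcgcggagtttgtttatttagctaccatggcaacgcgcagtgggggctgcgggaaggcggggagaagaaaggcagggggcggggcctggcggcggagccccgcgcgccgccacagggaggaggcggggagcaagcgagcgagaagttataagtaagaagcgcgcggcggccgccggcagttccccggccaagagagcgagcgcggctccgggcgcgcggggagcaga
The Klf7 window held 3 copies of CACCC, the Klf13 window 1, and the Klf4 and Klf6 windows none. Among the windows not shown, Klf3 held 5 copies, and Klf2, Klf9 and Klf15 held 1 each. CACCC was present on either strand in 57.52% of all 32851 windows of this length, against 6 of the 8 KLF windows. The GC box GGGCGG was found in 7 of the 8 (35.66% of all windows), all but Klf9. CCAAT was found in 4, with 4 copies in Klf6, 3 in Klf9, 2 in Klf13 and 1 in Klf15 (37.41% of all windows), and TATAAA in none (13.62% of all windows). Each motif was searched on both strands and matches of different motifs may share bases. GC content was 58.3% (Klf7) to 76.7% (Klf3), against a median of 52.67% over all windows. These matches describe letters, not sites.

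The shallowest library held 4326667 counts (day 2 B) and the deepest 11654959 (day 2 C). All 10 genes passed the filter on low counts, which left 13513 genes. Klf2 (6 to 35 counts a library) and Klf15 (6 to 38) were measured with low precision. CPM, the counts scaled to a common depth with TMM factors, is used within a gene, and TPM, the length-corrected transcript abundance, between genes. Pax8 stood at 225 ± 3.46 CPM (SD, n = 3) in the controls, then 402 ± 51.0, 256 ± 10.9 and 242 ± 10.5 on days 2, 6 and 12, and Pax2 at 46.8 ± 5.78, 71.6 ± 11.7, 79.0 ± 6.45 and 50.5 ± 3.71. Counts over a whole gene do not check a deletion, and the deleted exons were not given in the sources used here.

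The summed level of 16 proximal tubule markers was 2381 to 2532 CPM in control, 1472 to 1581 on day 2, 1343 to 1593 on day 6 and 799 to 1008 on day 12. Within that sum Aqp1 had 173 ± 3.37, 558 ± 20.4, 1044 ± 137 and 659 ± 101 CPM (SD, n = 3) in the same order. The similar sums of days 2 and 6 therefore hold a rise of Aqp1. Of the 10 markers with enough counts, 7 were lower and 1 (Aqp1) higher than control at days 6 and 12. Of all genes, 27.6% and 26.6% were called lower at these days and 26.7% and 26.1% higher (edgeR adjusted p under 0.05). From day 2 to day 6, 7 of the 10 were lower and 2 (Aqp1 and Lrp2) higher, against 22.3% and 22.6% of all genes. The median log2 fold change of the 10 at that step was -1.31. The transporters Slc34a1, Slc5a2 and Slc5a12, which define the proximal tubule, had no count in any library, and Hnf4a, a tubule transcription factor, had 12.8 ± 2.99 CPM in control, 1.03 ± 0.529 on day 2, 0.303 ± 0.166 on day 6 and 2.05 ± 0.718 on day 12. It was lower than control at each day (edgeR adjusted p = 6.83e-12, 1.12e-14 and 8.38e-11) and higher at day 12 than at day 6 (edgeR adjusted p = 9.80e-05). The sum of 10 fibroblast and smooth muscle markers was 10.8 to 12.5 CPM in control, 23.7 to 32.3 on day 2, 83.0 to 104 on day 6 and 349.9 to 422 on day 12, with Col3a1 and Pdgfra at 0 throughout. Of 7 such markers with enough counts, 6 were higher and none lower at days 6 and 12, beside the same shares of all genes. Sums of 10 endothelial markers were 36.6 to 37.8 CPM in the controls and higher in every treated library, at 49.6 to 52.6 (day 2), 43.9 to 46.9 (day 6) and 51.4 to 52.3 (day 12), with Cdh5 and Kdr at 0. Of 3 with enough counts, Flt1 was higher at all 3 days (day 12 log2 0.75 ± 0.081, edgeR adjusted p = 9.16e-10). Egfl7 was called lower at days 6 and 12. The median log2 fold change of the 3, which is the value of 1 gene, was -0.072, -0.58 and -0.43 at days 2, 6 and 12. At day 2 none of the 3 was called lower. The higher sums therefore do not describe each tested marker. Sums of 8 leukocyte markers were 23.3 to 27.0 CPM in the controls, then 18.5 to 19.6, 22.7 to 23.6 and 16.3 to 19.1, with Itgam and Cd3e at 0. Of 3 with enough counts, Csf1r was called lower at day 2 and Lyz2 higher at day 6. At day 12 Cd68 and Lyz2 were called higher and Csf1r lower, with a median log2 fold change of 0.72 although the sum was lower. Distal tubule and collecting duct markers (8 genes, Aqp2 at 0) summed to 4.84 to 7.53 CPM in the controls, then 2.90 to 4.68, 2.21 to 3.38 and 5.37 to 5.84. The part of these shifts in the KLF values was not tested, and in bulk RNA a change in the share of cells expressing a gene and a change of RNA per cell cannot be told apart.

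Klf7, Klf5, Klf6 and Klf13 stood above control in every library of every treated day, by 1.38- to 1.66-fold at day 2 and 1.91- to 2.63-fold at day 6. How many of all genes tested stood apart from control in this way was not counted, so nothing is read from that separation. Klf3 was higher at days 2 and 6 by a smaller margin, and Klf4 was higher at day 12. Klf15 was low throughout, with its highest mean at day 12. Klf2, Klf9 and Klf10 were past the threshold in no contrast. Of the 10 genes, 5 were called higher and 0 lower at day 2 (adjusted p under 0.05 in edgeR's quasi-likelihood test), where 10.3% of all genes tested were called higher and 10.9% lower. At day 6 the counts were 6 higher and 0 lower, against 26.7% and 27.6% of all genes. At day 12 they were again 6 higher and 0 lower, against 26.1% and 26.6%. Between day 2 and day 6, 4 were called higher and 1 lower (22.6% and 22.3% of all genes), and between day 6 and day 12, 2 higher and 2 lower (11.0% and 11.0% of all genes). Since the genes were chosen on these libraries, nothing is read from these counts, and the 3 comparisons with control share the same control libraries.

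**Figure D1:**
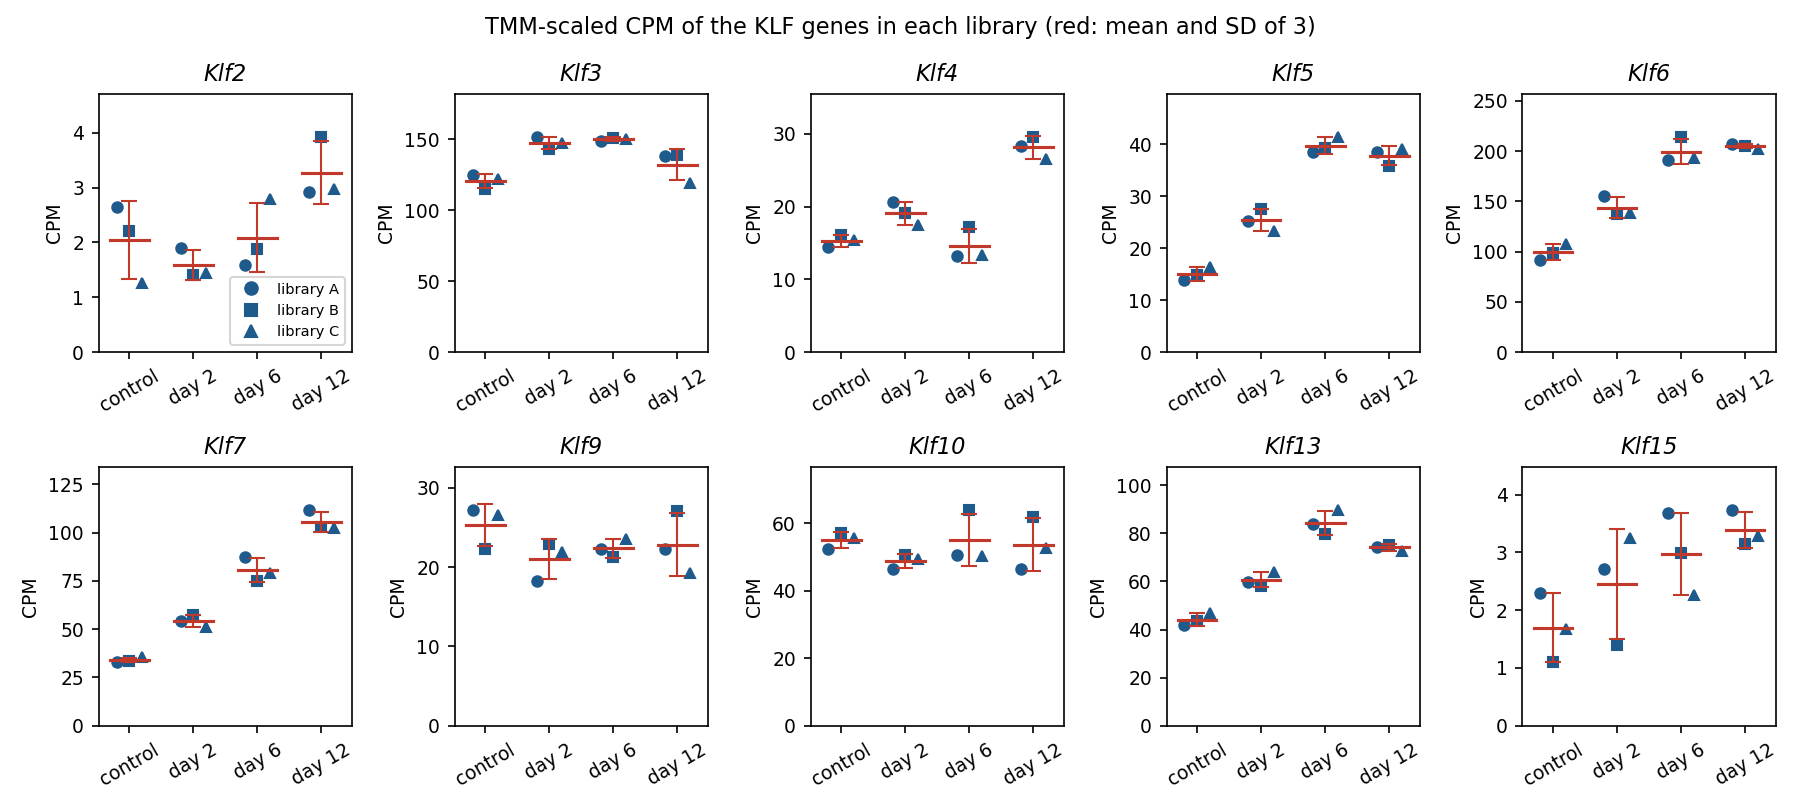
TMM-scaled CPM (vertical axis, linear from 0, a scale of its own in each panel) of the 10 KLF genes in each library, by group (horizontal axis). Points are single libraries, red bars the mean and SD of 3, and the treated libraries of Klf5, Klf6, Klf7 and Klf13 all lie above the control libraries.

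The activators come first. Klf7 (ENSMUSG00000025959, chr1:64029447-64122282 on the minus strand, GRCm38), known for its role in neurite outgrowth and in adipocyte differentiation, had 33.1, 33.8 and 35.4 CPM in control libraries A, B and C, the order used throughout. It reached 54.3, 57.5 and 51.2 CPM at day 2, 87.6, 74.9 and 79.4 at day 6 and 112, 103 and 102 at day 12. No group overlapped another, and each later group lay wholly above the earlier one. The log2 fold change against control was 0.66 ± 0.083 (SE) at day 2, 1.24 ± 0.078 at day 6 and 1.63 ± 0.077 at day 12, the last being 3.10-fold, the largest among the 10 genes. It was the only one of the 10 called higher both from day 2 to day 6 (0.59 ± 0.075) and from day 6 to day 12 (0.39 ± 0.069). The later step lost its call on log2(TPM + 1), where it was 0.27. Exons of Klf7 overlap the spans, introns included, of 2 annotated genes on the opposite strand. The overlap is 3465 bases with Gm26649, not analysed here, and 628 bases with Gm13748, which had no counts. The exons of these genes were not compared, and the strand setting of the counting was not given in the sources used here. Whether reads from an antisense partner enter the Klf7 counts therefore cannot be told.

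Klf5 (ENSMUSG00000005148, chr14:99298691-99315036), an activator of epithelial proliferation and of smooth muscle remodelling, stood at 13.9, 14.8 and 16.4 CPM in control. Levels were 25.3, 27.6 and 23.4 CPM at day 2, 38.5, 39.3 and 41.5 at day 6 and 38.5, 35.8 and 39.1 at day 12. The control, day 2 and day 6 libraries formed 3 separate ranges, whereas day 6 and day 12 overlapped. Fold changes against control were 1.66 at day 2, 2.63 at day 6 and 2.51 at day 12 (log2 0.73 ± 0.11, 1.39 ± 0.10 and 1.32 ± 0.10). From day 6 to day 12 the log2 difference was -0.070 ± 0.086.

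Klf6 (ENSMUSG00000000078, chr13:5861482-5870394) encodes a broadly expressed activator of cell cycle inhibitor and TGF-beta pathway genes. Its control libraries held 92.0, 98.4 and 108 CPM, and the day 2 libraries 155, 137 and 139. At day 6 the values were 191, 214 and 193 CPM and at day 12 207, 205 and 203. As for Klf5, the steps to day 2 and to day 6 separated the groups, and days 6 and 12 overlapped. The fold change was 1.45 at day 2, 2.01 at day 6 and 2.06 at day 12 (log2 0.53 ± 0.067, 1.00 ± 0.065 and 1.04 ± 0.065), with 0.038 ± 0.062 between the last pair of days.

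Klf4 (ENSMUSG00000003032, chr4:55527143-55532466 on the minus strand), a factor of epithelial differentiation and of pluripotency, followed another course. Control libraries had 14.4, 16.1 and 15.4 CPM, day 2 libraries 20.7, 19.2 and 17.5, day 6 libraries 13.2, 17.2 and 13.3 and day 12 libraries 28.4, 29.6 and 26.5. Day 12 lay above all other libraries, and day 6 overlapped control. Day 12 exceeded control by 1.84-fold (log2 0.88 ± 0.11) and day 6 by 1.92-fold (log2 0.94 ± 0.11). At day 2 the difference of 0.32 ± 0.12 was not called, although the groups did not overlap, and it was called without day 2 C (0.40). The step down to day 6 (-0.38 ± 0.12) was called, and was not without day 2 A (-0.30), day 6 A (-0.30) or day 6 C (-0.32), nor on log2(TPM + 1) (-0.40).

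Klf2 (ENSMUSG00000055148, chr8:72319033-72321656), a flow-responsive factor of endothelium and a regulator of lymphocyte quiescence, had 2.65, 2.21 and 1.25 CPM in control and 1.90, 1.40 and 1.45 at day 2. Day 6 libraries held 1.59, 1.88 and 2.80 CPM and day 12 libraries 2.92, 3.93 and 2.98. Day 12 lay above the other groups by a small margin. The log2 difference between day 12 and control, 0.70 ± 0.31, was not called, but was without control A (0.95) and on log2(TPM + 1) (0.54). The summed endothelial markers were higher at day 12 than in control (51.4 to 52.3 against 36.6 to 37.8 CPM). Of the 3 tested, Flt1 was called higher and Egfl7 lower, with a median log2 fold change of -0.43. Cdh5 and Kdr were at 0, and the part of these markers in the Klf2 values was not tested.

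Klf3 (ENSMUSG00000029178, chr5:64803388-64832901) encodes the CtBP-recruiting repressor of the set. It stood at 125, 115 and 122 CPM in control, 152, 143 and 147 on day 2, 149, 151 and 150.4 on day 6 and 138, 139 and 119 on day 12. Days 2 and 6 lay above control without overlap, and day 12 overlapped it through day 12 C. Against control the log2 fold changes were 0.29 ± 0.062, 0.31 ± 0.061 and 0.13 ± 0.062. The last was not called with all libraries and was called without day 12 C (0.20). The day 6 difference was 0.34 on log2(TPM + 1) and not called there. From day 6 to day 12 it was -0.18 ± 0.061, a call lost without day 6 A (-0.19), day 6 B (-0.18), day 6 C (-0.18) or day 12 C (-0.12), and of the opposite sign on log2(TPM + 1) (0.0020). Exons of Klf3 overlap the span, introns included, of the opposite-strand gene Gm20033 by 404 bases. The exons of Gm20033 were not compared, and its own mean was 0.316 CPM in control and 1.59 CPM at day 6.

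Among the Sin3A-binding factors, Klf13 (ENSMUSG00000052040, chr7:63886351-63938915 on the minus strand), first described as an activator of the chemokine gene Ccl5 in T lymphocytes, had 42.0, 43.4 and 46.9 CPM in control. The day 2 libraries held 59.7, 58.0 and 64.0 CPM, the day 6 libraries 83.8, 79.7 and 89.6 and the day 12 libraries 74.3, 75.3 and 72.7. No pair of groups overlapped, and day 6 was highest. Fold changes against control were 1.38, 1.91 and 1.68 (log2 0.47 ± 0.077, 0.93 ± 0.073 and 0.75 ± 0.074). The step down from day 6 to day 12, -0.19 ± 0.069, was only just called. It was lost without control B (-0.19), control C (-0.18), day 6 A (-0.19), day 6 C (-0.14), day 12 A (-0.19), day 12 B (-0.21) or day 12 C (-0.18), and with DESeq2 (-0.19), without the low-count filter (-0.19) and on log2(TPM + 1) (-0.35).

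Klf9 (ENSMUSG00000033863, chr19:23141226-23168134), which responds to thyroid hormone and glucocorticoids, had 27.2, 22.3 and 26.6 CPM in control and 18.2, 22.9 and 21.9 at day 2. At day 6 it had 22.3, 21.2 and 23.6 CPM, and at day 12 22.3, 27.0 and 19.2. All groups overlapped. The log2 differences from control were -0.28 ± 0.12, -0.19 ± 0.12 and -0.16 ± 0.12, none of them called, although the last was called without day 12 B (-0.30). The control mean was the highest of the 4 groups.

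Klf10 (ENSMUSG00000037465, chr15:38291463-38300706 on the minus strand), an early TGF-beta-induced gene, had 52.3, 57.0 and 55.5 CPM in control, 46.4, 50.5 and 49.3 on day 2, 50.5, 63.9 and 50.4 on day 6 and 46.3, 62.0 and 52.7 on day 12. Day 2 lay below control without overlap, with a log2 difference of -0.18 ± 0.10 that was not called, and days 6 and 12 overlapped control. Library B was the highest of the 3 in every group.

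Klf15 (ENSMUSG00000030087, chr6:90462576-90475238), a glucocorticoid-responsive regulator of branched-chain amino acid catabolism and gluconeogenesis, had 2.30, 1.11 and 1.67 CPM in control and 2.72, 1.40 and 3.25 at day 2. Day 6 libraries held 3.68, 2.98 and 2.27 CPM and day 12 libraries 3.73, 3.14 and 3.29. Only day 12 lay wholly above control. The log2 fold changes were 0.63 ± 0.33, 0.81 ± 0.32 and 0.97 ± 0.31, and those of days 6 and 12 were called. The day 6 call was lost without control B (0.61), control C (0.78), day 6 A (0.62) or day 6 B (0.82), and with DESeq2 (0.82) and on log2(TPM + 1) (0.52), and the day 12 call without control B (0.77).

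**Figure D2:**
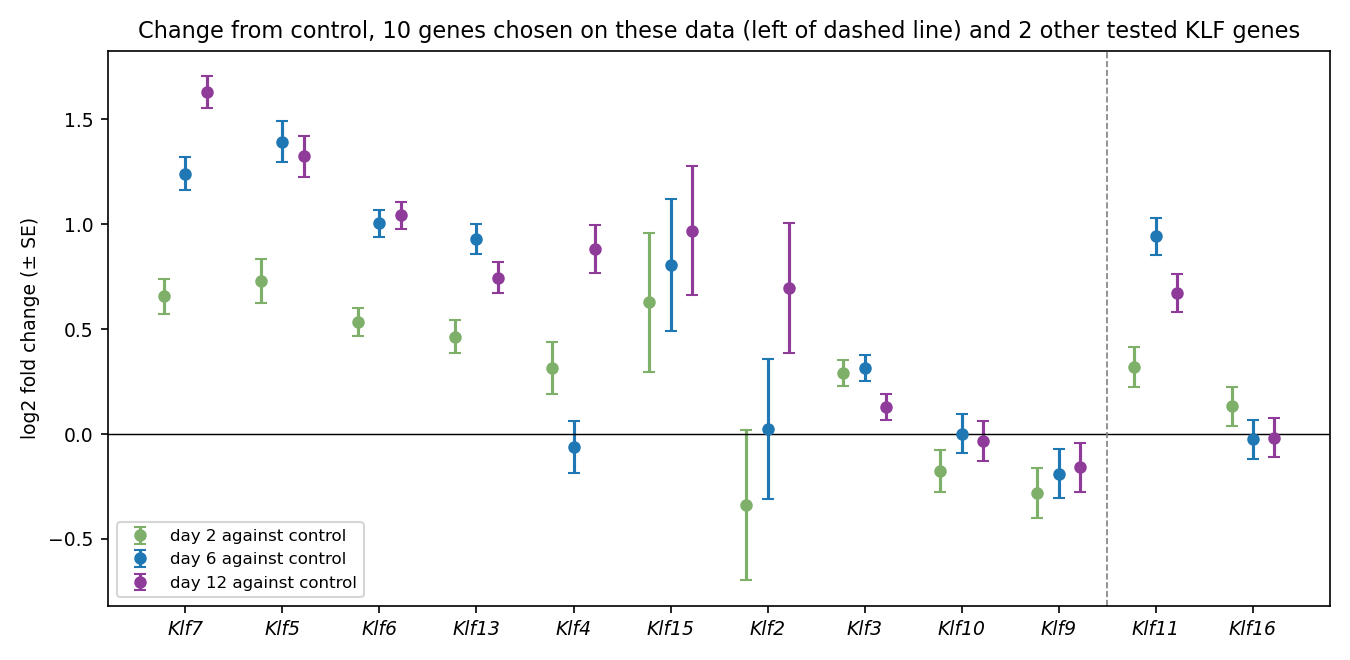
Log2 fold change against control (vertical axis, bars are SE) at days 2, 6 and 12 for the 10 KLF genes and, right of the dashed line, Klf11 and Klf16. Klf7 reaches 1.63 at day 12 and Klf5 1.39 at day 6, Klf4 is highest at day 12, and the wide bars belong to Klf2 and Klf15.

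Of the 17 Klf rows in the tables, 12 had enough counts to test, the 10 above with Klf11 and Klf16. Klf11, a Sin3A-binding repressor related to Klf10, stood at 23.3 ± 1.02 CPM (SD, n = 3) in control and rose to 29.1 ± 0.691 at day 2 (edgeR adjusted p = 0.0126), 44.8 ± 2.71 at day 6 (adjusted p = 3.00e-11) and 37.3 ± 2.58 at day 12 (adjusted p = 7.39e-08). It was lower at day 12 than at day 6 (log2 -0.27 ± 0.082, edgeR adjusted p = 0.0150). Klf16 had 28.2 ± 0.748, 31.1 ± 1.15, 27.9 ± 2.90 and 27.9 ± 1.52 CPM and passed the test in no contrast (edgeR adjusted p = 0.377 at day 2, 0.846 at day 6 and 0.895 at day 12). Klf8, a CtBP-binding relative of Klf3, had 13 counts over the 3 control libraries, 4 at day 2, 1 at day 6 and 14 at day 12. Klf1, the erythroid factor, had 0 to 4 counts a library and Klf12 0 to 3, and Klf14 and Klf17 had none.

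Per length, the family was dominated by Klf3, Klf6 and Klf10. The TPM summed over all Klf rows was 186 ± 10.6 (SD, n = 3) in control, 241 ± 9.73 on day 2, 296 ± 2.95 on day 6 and 296 ± 21.7 on day 12. Every treated library was above every control library. The 10 genes, chosen on these libraries, made up 85.2% (control C) to 89.1% (day 12 A) of the sum, so nothing is read from that separation. Within the 10 genes, Klf11 and Klf16 left aside, the order of TPM levels in control was Klf3 (46.7 ± 8.74), Klf6 (37.5 ± 3.57), Klf10 (29.2 ± 1.26), Klf13 (11.4 ± 0.981), Klf9 (9.07 ± 1.41), Klf4 (8.16 ± 0.375), Klf5 (7.23 ± 0.768), Klf7 (6.92 ± 0.357), Klf2 (1.90 ± 0.654) and Klf15 (1.30 ± 0.407). The neighbours Klf3 and Klf6, those from Klf9 to Klf7, and Klf2 and Klf15 overlapped between libraries. At day 12 the order of the 10 was Klf6 (82.1 ± 3.97 TPM), Klf3 (59.9 ± 11.9), Klf10 (29.8 ± 4.53), Klf7 (22.8 ± 0.957), Klf13 (19.2 ± 0.947), Klf5 (18.8 ± 0.681), Klf4 (16.4 ± 1.41), Klf9 (8.31 ± 1.53), Klf2 (3.18 ± 0.594) and Klf15 (2.51 ± 0.213). There, among neighbours within the 10, only Klf13 and Klf5 overlapped, and Klf7 had moved from the eighth place of the 10 to the fourth. Klf16 stood at 17.3 ± 1.07 TPM in control and 17.8 ± 1.18 at day 12, and Klf11 at 9.02 ± 0.707 and 15.0 ± 1.13.

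The Klf6 share of the summed TPM was 20.2% ± 1.79 in control, 22.2% ± 1.69 on day 2, 27.8% ± 1.47 on day 6 and 27.8% ± 1.64 on day 12. Klf7 took 3.72% ± 0.259 in control and 7.72% ± 0.560 at day 12, and Klf5 3.89% ± 0.352 and 6.38% ± 0.700. The Klf10 share was 15.7% ± 1.10 in control and 10.1% ± 1.30 at day 12. That of Klf3 was 25.0% ± 3.83 in control, 28.5% ± 4.20 at day 2 and 20.1% ± 2.61 at day 12. TPM depends on the effective length assigned to a gene in each library. For Klf3 that relative length, inferred from counts and TPM, ran from 0.643 (day 2 B) to 1.11 (control C) relative to the control mean and to the median gene of each library, and for Klf4 from 0.579 (day 2 A) to 1.01 (day 6 C). For Klf5 it ran only from 0.989 to 1.01. The Klf3 TPM values were 67.8, 81.6 and 57.2 at day 2, where its CPM were 152, 143 and 147, and the Klf4 TPM values were 18.8, 9.79 and 9.50 with CPM of 20.7, 19.2 and 17.5. Day 2 B was the highest of its group for Klf3 in TPM and the lowest in CPM. Day 2 A was the highest for Klf4 on both scales, by a wider margin in TPM.

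**Figure D3:**
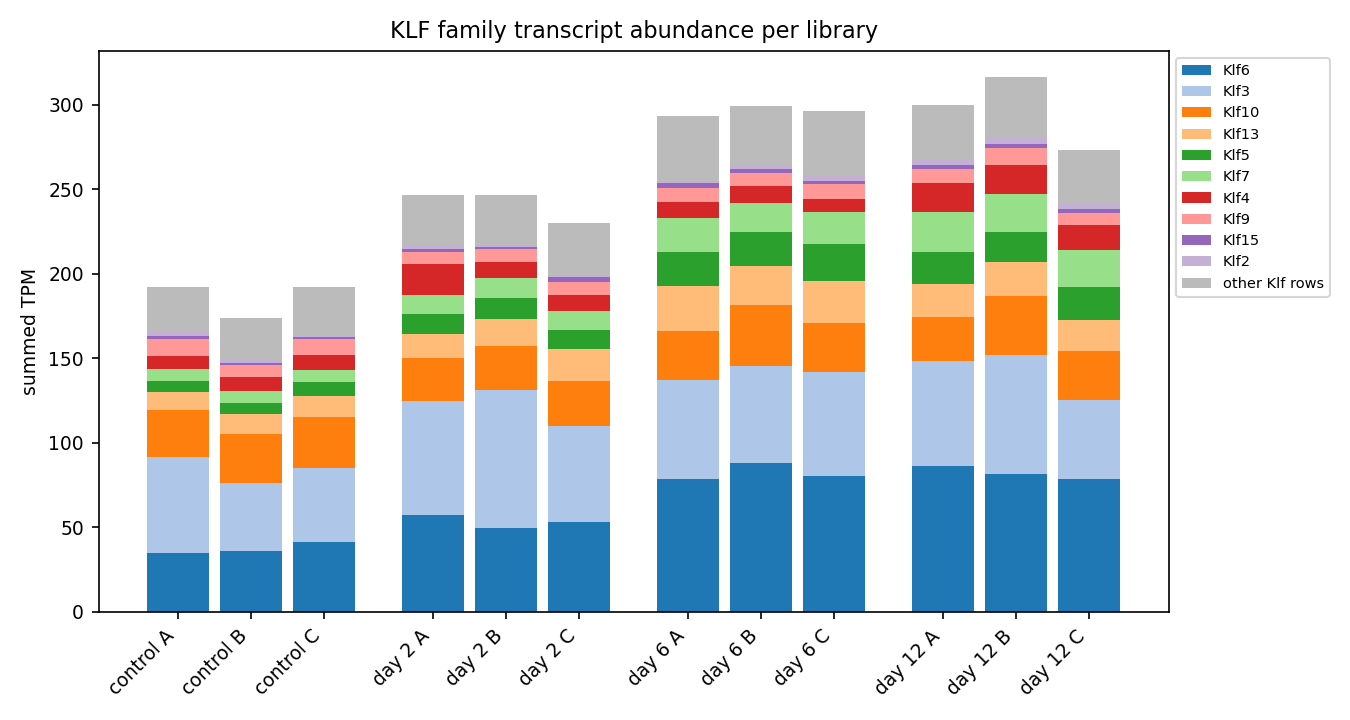
TPM of each KLF gene stacked for each of the 12 libraries (vertical axis linear from 0, in TPM), with the remaining Klf rows in grey. Total height is 174 to 192 in the control libraries and 273 to 316 at day 12, and the Klf6 segment is the tallest in each library of days 6 and 12.

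For the 4 KLF genes whose group means differed most on log2 CPM, the genes with the most similar pattern were ranked by Pearson r of log2 CPM over the 12 libraries, which share their groups, among 10488 candidates. For Klf7 these were Tnfaip3 (r = 0.993), an inhibitor of NF-kB signalling, Hacd2 (0.991) and Ifitm3 (0.991). Mean Tnfaip3 levels were 8.92, 27.4, 63.8 and 114 CPM in control and at days 2, 6 and 12. For Klf5 they were the forkhead factor Foxq1 (r = 0.994; 1.60, 12.8, 56.2 and 48.0 CPM), Rasl11a (0.993) and Zfp521 (0.992). For Klf6 they were the cytokine receptor subunit Il10rb (0.993), the sphingosine kinase Sphk1 (0.988) and again Zfp521 (0.986). For Klf15, with its low counts, Tprkb had the highest r (0.960), then Mkln1 (0.937) and Luzp1 (0.931).

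The related SP family shares the zinc finger fold and binds GC boxes. Of its 9 rows, 7 were tested, and 0 rose and 1 fell at day 2 (10.3% and 10.9% of all genes), 2 rose and 1 fell at day 6 (26.7% and 27.6%), and 4 rose and 0 fell at day 12 (26.1% and 26.6%). Sp1, a ubiquitous activator, rose from 269.9 ± 6.01 CPM to 303 ± 11.8 at day 12 (log2 0.17 ± 0.056, edgeR adjusted p = 0.0127). Sp8, a factor of limb outgrowth, went from 19.5 ± 2.32 to 26.7 ± 2.73 CPM on day 12 (edgeR adjusted p = 8.04e-04). Sp5, a WNT target gene, was low in control (0.437 ± 0.439 CPM) and had 2.82 ± 0.466 CPM at day 6 (edgeR adjusted p = 3.17e-05). Sp6 fell from 2.00 ± 0.446 CPM in control to 0.575 ± 0.364 at day 6 (edgeR adjusted p = 0.00148) and stood at 1.72 ± 0.219 at day 12 (edgeR adjusted p = 0.626). Sp4 rose at day 12 (log2 0.38 ± 0.13, edgeR adjusted p = 0.0152), and Sp2 and Sp3 passed in no contrast. Sp7 and Sp9 had too few counts to test.

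Other genes of KLF biology were taken from lists written from general knowledge with earlier results of these data known, and each is described by its counts and its median log2 fold change. Over all genes tested that median was -0.0015 at day 2, -0.0060 at day 6 and -0.0028 at day 12, and the shares called are those given above for each day. The lists share genes, and Cdkn1a stands in 3 of them.

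Of 20 KLF cofactors and ubiquitin ligases, 2 rose and 1 fell at day 2, 10 rose and 4 fell at day 6 (median 0.19), and 7 rose and 4 fell at day 12. The corepressor Ctbp2, a partner of KLF3, fell from 75.4 ± 1.43 CPM to 49.5 ± 2.10 at day 6 (1.52-fold lower, edgeR adjusted p = 1.93e-08). The other CtBP gene, Ctbp1, went the other way and was called higher at days 6 and 12. Fhl2, a LIM-domain coregulator, rose from 18.0 ± 1.00 to 35.3 ± 4.22 CPM on day 6 (edgeR adjusted p = 1.37e-09). The ubiquitin ligase Smurf1 rose from 78.2 ± 3.03 to 105 ± 4.97 CPM on day 6 (edgeR adjusted p = 6.41e-07).

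Of 19 regulators upstream of KLF genes, 5 rose and 0 fell at day 2, 14 rose and 2 fell at day 6 (median 0.32), and 14 rose and 1 fell at day 12 (median 0.40). Foxo1, a forkhead factor upstream of Klf2 in lymphocytes, rose at each day, from 78.8 ± 4.60 CPM to 142 ± 8.07 at day 2, 206 ± 7.01 at day 6 and 215 ± 13.9 at day 12 (edgeR adjusted p = 5.90e-20). The TGF-beta ligand Tgfb2 rose from 15.2 ± 0.635 to 50.8 ± 5.85 CPM at day 12, 3.35-fold (edgeR adjusted p = 8.04e-17). The thyroid hormone receptor Thra rose from 66.2 ± 2.13 CPM to a day 6 mean of 126 ± 2.00 (edgeR adjusted p = 1.93e-14).

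Glucocorticoid receptor targets, a group to which Klf9 and Klf15 also belong in many tissues, had 4 of 13 higher and 2 lower at day 2 (median -0.071), 8 higher and 2 lower at day 6 (median 0.72) and 8 higher and 1 lower at day 12 (median 0.40). Tsc22d3, which encodes the glucocorticoid-induced leucine zipper, rose from 27.7 ± 2.32 CPM to 63.0 ± 1.78 at day 6 (edgeR adjusted p = 5.09e-14). The kinase gene Sgk1 rose from 9.63 ± 0.311 CPM to a day 2 mean of 40.6 ± 8.83 (edgeR adjusted p = 7.15e-12). It stood at 32.0 ± 2.87 at day 6 and 44.2 ± 3.26 at day 12, called lower and then higher at these steps. Errfi1, an inhibitor of EGF receptor signalling, fell from 242 ± 10.9 CPM to a day 2 mean of 153 ± 5.92 (edgeR adjusted p = 2.64e-11) and was at 398 ± 17.5 at day 6 (edgeR adjusted p = 1.61e-13).

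Immediate early genes had 7 of 22 higher and 1 lower at day 2 (median 0.28), 16 higher and 1 lower at day 6 (median 1.02) and 13 higher and 1 lower at day 12 (median 0.69). From day 6 to day 12, 1 rose and 13 fell (median -0.39), against 11.0% and 11.0% of all genes, whose median was 0.0078. Junb, an AP-1 subunit, had 15.8, 18.8 and 16.1 CPM in control, 32.2, 33.9 and 32.2 on day 2, 88.7, 95.1 and 99.8 on day 6 and 68.1, 72.3 and 72.5 on day 12. Its groups did not overlap, and the day 6 rise was 5.61-fold (edgeR adjusted p = 4.18e-23). The orphan receptor Nr4a1 went from 7.34 ± 1.06 CPM to a day 6 mean of 43.1 ± 4.86 (edgeR adjusted p = 6.04e-19) and 25.6 ± 0.824 at day 12. The phosphatase gene Dusp1 went from 28.1 ± 2.68 CPM to a day 6 mean of 67.8 ± 3.87 (edgeR adjusted p = 1.67e-14).

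Genes known as KLF targets in other tissues moved in both directions. Of 9 targets of KLF2 and KLF4, 3 rose and 4 fell at day 6 (median -0.29) and at day 12 (median -0.013), and 2 rose and 2 fell at day 2. Cdh1, which encodes E-cadherin and is activated by KLF4 in epithelia, fell from 27.4 ± 2.61 CPM in control to 17.4 ± 3.99 at day 2, 3.14 ± 0.193 at day 6 and 2.68 ± 0.120 at day 12 (10.2-fold lower, edgeR adjusted p = 2.19e-18). The cell cycle inhibitor Cdkn1a fell from 199.5 ± 16.8 CPM to a day 6 mean of 64.4 ± 6.12 (edgeR adjusted p = 1.75e-16) and stood at 116 ± 12.6 at day 12. Its relative Cdkn1b rose from 127 ± 4.67 CPM to a day 6 mean of 204 ± 4.77 (edgeR adjusted p = 2.26e-12).

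Of 10 KLF5 targets, 3 rose and 0 fell at day 2, 3 rose and 2 fell at day 6 (median -0.054), and 2 rose and 3 fell at day 12. Pparg, an adipogenic nuclear receptor, had 1.61, 2.08 and 1.88 CPM in control, 8.57, 7.72 and 7.09 on day 2, 10.1, 12.7 and 12.0 on day 6 and 15.1, 11.2 and 13.8 on day 12. Every treated library lay above the controls, and the day 6 rise was 6.23-fold (edgeR adjusted p = 3.33e-13). The mitotic genes Ccnb1 (247 ± 2.54 to 152 ± 7.69 CPM, edgeR adjusted p = 4.91e-13) and Cdk1 (199 ± 3.02 to 155 ± 1.90 CPM, edgeR adjusted p = 7.96e-07) fell at day 6.

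Of 11 KLF6 targets, 3 rose and 3 fell at day 2, 5 rose and 2 fell at day 6 (median 0.28), and 6 rose and 3 fell at day 12 (median 0.28). The membrane protease gene Mmp14 rose from 60.6 ± 3.00 CPM to a day 6 mean of 149 ± 1.78 (edgeR adjusted p = 4.72e-18). The receptor gene Tgfbr2 fell from 332 ± 14.9 CPM to 196 ± 1.27 at day 6 (edgeR adjusted p = 1.36e-13) and 152 ± 11.2 at day 12.

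Of 27 KLF15 targets and genes of branched-chain amino acid catabolism, 2 rose and 7 fell at day 2, 3 rose and 14 fell at day 6 (median -0.30), and 4 rose and 8 fell at day 12 (median -0.12). From day 6 to day 12, 6 rose and 2 fell (11.0% and 11.0% of all genes). Acaa2, of fatty acid oxidation, fell from 76.1 ± 7.49 CPM to a day 2 mean of 33.7 ± 1.88 (edgeR adjusted p = 2.66e-13) and stood at 28.9 ± 0.847 at day 12. Between these days it was called higher from day 2 to day 6 and lower from day 6 to day 12. Mmut, which encodes methylmalonyl-CoA mutase, fell from 92.3 ± 3.81 CPM to a day 6 mean of 49.5 ± 4.39 (edgeR adjusted p = 4.35e-12). Ppargc1a, a coactivator of mitochondrial genes, fell from 69.5 ± 4.46 CPM to a day 6 mean of 33.4 ± 0.676 (edgeR adjusted p = 3.53e-13). Klf15 itself, at 1.11 to 3.73 CPM over all libraries, was higher at day 12 than in control, and its link to these genes was not tested.

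Of 12 targets of KLF3, KLF7, KLF9, KLF10 and KLF13, 2 rose and 2 fell at day 2, 4 rose and 4 fell at day 6 (median -0.048), and 6 rose and 5 fell at day 12 (median 0.044). L1cam, a neural adhesion molecule gene activated by KLF7 in sensory neurons, fell from 211 ± 15.0 CPM to 99.1 ± 8.22 at day 2, 26.7 ± 1.23 at day 6 and 16.1 ± 1.12 at day 12 (13.1-fold lower, edgeR adjusted p = 2.27e-28). Klf7 was higher on these days, and a link between Klf7 and L1cam was not tested. Smad7, a TGF-beta pathway inhibitor repressed by KLF10 in other cells, rose from 6.24 ± 1.24 CPM to a day 12 mean of 30.2 ± 1.73 (edgeR adjusted p = 1.54e-16).

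**Figure D4:**
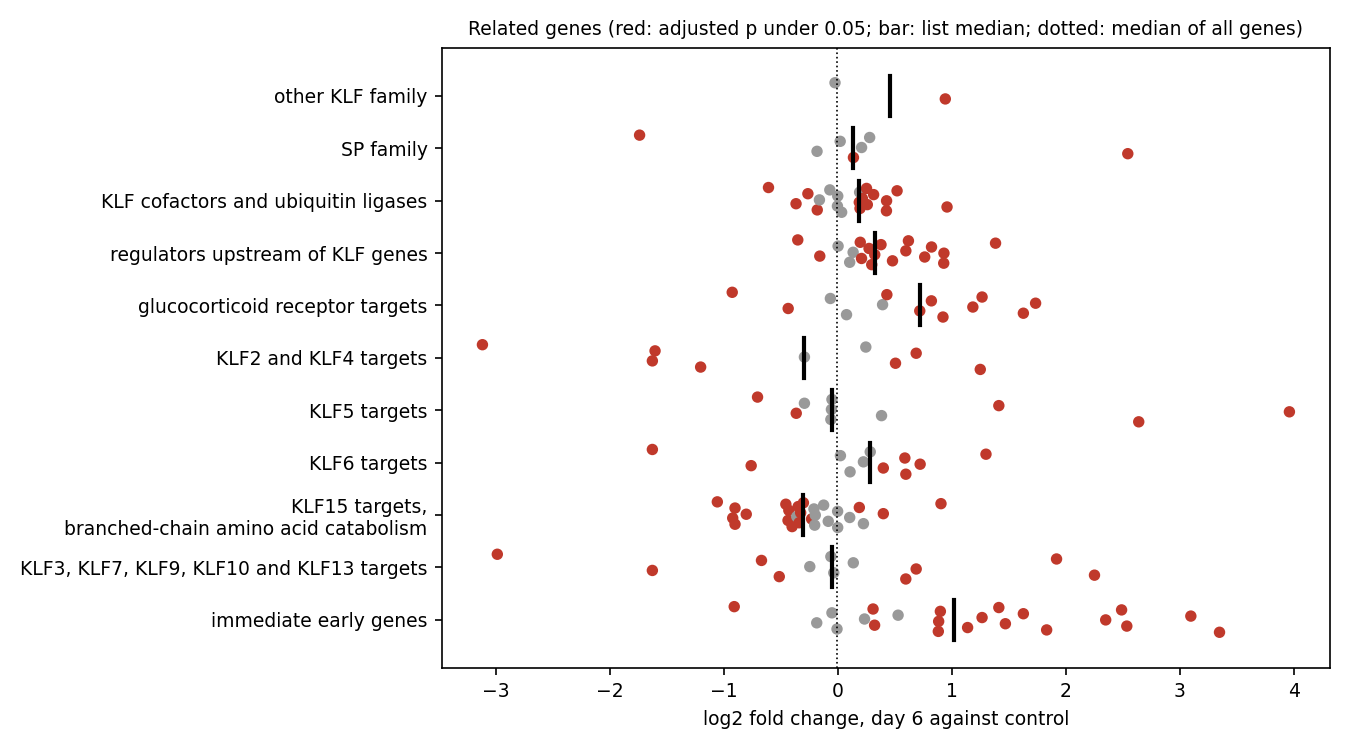
Log2 fold change at day 6 against control (horizontal axis) of each tested gene of the related lists (rows). Red points passed the test and grey did not, bars are list medians and the dotted line the median of all genes, and the immediate early genes have the highest list median, at 1.02.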

How the data were processed

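PolyA RNA of PT-22 cells was sequenced in 12 libraries. The tools named in the submitters' processing notes are RSEM 1.3.3, STAR 2.7.8a, cutadapt 2.3 and FastQC 0.11.8, with build GRCm38. The annotation release, strand use and filters are not given in the sources used here. The authors deposited RSEM expected counts, in whole numbers and not normalized, and a second table of TPM values. All columns were used.

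The count test was edgeR 4.0.16 in R 4.3.3 (filterByExpr by group, TMM, 1 robust quasi-likelihood fit of the 4 groups with 8 residual degrees of freedom, two-sided, Benjamini-Hochberg over 13513 genes, threshold 0.05). Standard errors are the log2 fold change divided by the root of F. Log2 CPM for likeness used a prior count of 2. Alternatives were DESeq2 1.42.0, its size factors in edgeR, no scaling beyond library totals, no filter, a stricter filter (at least 1 CPM in at least 6 libraries), only the 2 groups compared, limma 3.58.1 on log2(TPM + 1) and log2(TPM + 0.1), a replicate block, and each library left out. Shares were also taken of summed CPM. The script was tested on simulated counts. No pair of replicates was a copy (chi-square per degree of freedom 2.12 to 7.56).

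The 10 genes and all lists were chosen with earlier results of these data known. The named genes were all Klf and Sp rows, Pax8 and Pax2, up to 3 genes a list with the smallest p across the 4 groups, and, for the 4 KLF genes of widest range, the 3 most correlated genes with a mean of at least 5 CPM. Hnf4a, Aqp1, Lrp2, Flt1, Egfl7, Cd68, Lyz2, Csf1r, Ctbp1 and the markers at 0 were named after their values were seen. Of 167 list symbols 166 matched, and 140 were tested. Gene positions came from GENCODE M21. The result of 1 marker list is not reported here.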

Additional observations from a re-analysis of the deposited data

How the results depend on the processing

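Of 1050 values of the 10 KLF genes recomputed under the alternatives, 40 changed their side of the threshold, and each is given with its gene above or here. Among differences called in the edgeR fit, 2 values changed sign, also given here. Sign changes of differences not called were not counted. The count of KLF genes called between day 6 and day 12 was 4, but 1 with limma on log2(TPM + 1) and 1 on log2(TPM + 0.1), and 2 to 4 when 1 library was left out, being 2 without day 6 A, day 6 C or day 12 C. The related genes called there numbered 50, but 27 and 24 with limma on the same scales, and 39 to 54 with 1 library left out. The sign changed for Klf3 between day 6 and day 12, from -0.18 to 0.0020 on log2(TPM + 1) and 0.0017 on log2(TPM + 0.1), and the cause was not tested. Leaving out 1 library gave 5 to 6 KLF genes at day 2 (5 with all), 5 to 6 at day 6 (6), 5 to 7 at day 12 (6) and 4 to 5 from day 2 to day 6 (5). With limma on log2(TPM + 0.1), Klf15 and Klf3 were not called at day 6 (0.79 and 0.35), nor Klf4 from day 2 to day 6 (-0.43), nor Klf7 (0.28) and Klf13 (-0.36) from day 6 to day 12.

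Over all genes, limma on log2(TPM + 1) called 1744 at day 2 (745 higher, 999 lower) against 2860 in edgeR, and 1379 (496 and 883) against 2971 from day 6 to day 12. On log2(TPM + 0.1) these were 1725 (774 and 951) and 1300 (443 and 857). At day 6 limma called 3537 higher and 2181 lower on log2(TPM + 1) and 3516 and 2165 on log2(TPM + 0.1), against 3614 and 3729. From day 2 to day 6 it called 3372 and 1383, and 3329 and 1380, against 3055 and 3007, and the median of all genes moved from -0.0017 to 0.12 and 0.13. The libraries' letters did not pair them (correlations of deviations from the group means of -0.15 to 0.11). A fit with the letter as a replicate block called 6, 6, 6, 5 and 4 KLF genes in the 5 contrasts and added Klf4 at day 2 (0.33). Klf2 and Klf15, with 6 to 38 counts a library, are limited by depth.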
